A study of Mus musculus with 48 samples.

Results

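Integrins are heterodimeric cell surface receptors, each made of 1 alpha and 1 beta subunit, and laminins are heterotrimers of 1 alpha, 1 beta and 1 gamma chain that form the sheet-like backbone of basement membranes. The genes described here were chosen by symbol: every gene of both count tables named Itga or Itgb with a digit or a single letter, without the integrin-binding protein genes Itgb1bp and Itgb3bp, and every gene named Lama, Lamb or Lamc with a digit. The rule found 39 of 55450 genes. There were 18 integrin alpha and 10 integrin beta genes, together 28 integrins, and 5 laminin alpha, 3 laminin beta and 3 laminin gamma genes, together 11 laminins. Itgbl1 entered through its symbol, although its product is an integrin beta-like secreted protein and not a receptor subunit.

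Mature fat cells are wrapped in a basement membrane, whereas their fibroblast-like precursors sit on fibronectin and collagens, and differentiation in culture is known for an exchange of fibronectin and collagen receptors for laminin-binding ones. The subunit pairs fall into laminin receptors (Itga3, Itga6 and Itga7 with Itgb1, and Itga6 with Itgb4), collagen receptors (Itga1, Itga2, Itga10 and Itga11 with Itgb1), receptors that recognise the RGD motif of fibronectin and vitronectin (Itga5, Itga8 and Itgav with Itgb1, Itgb3, Itgb5 or Itgb8) and leukocyte integrins (Itgad, Itgal, Itgam and Itgax with Itgb2, and Itgae with Itgb7). HMGN1 and HMGN2 are nucleosome-binding proteins, and the libraries compare C57BL/6 wild type (WT) cells with cells that carry Hmgn1-/- and Hmgn2-/- (double knockout, DKO).

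RNA was sequenced from 48 libraries, 3 per group in 16 groups. White preadipocytes came from the inguinal fat of mice 8 to 12 weeks old and were grown on collagen-coated plates, and mouse embryonic fibroblasts (MEFs) came from embryos and were grown on tissue culture plates. Both genotypes received the same differentiation medium with insulin, dexamethasone, IBMX, T3 and rosiglitazone (4 days for preadipocytes, 8 days for MEFs), followed by 4 days of insulin and T3. Preadipocytes were sampled at days 0, 3, 6 and 9, and MEFs at days 0, 4, 8 and 12. Day and medium changed together, so their parts in a change over time cannot be told apart. The paper names 3 biological replicates, but the labels do not say whether the 3 libraries of a group came from separate animals. The p-values therefore measure the spread between these libraries, which may not be the spread between animals. These are bulk libraries of cultures that may hold several cell types, in which fewer cells of a type and less RNA per cell cannot be told apart.

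The libraries held between 19809397 and 36006696 counts in preadipocytes and between 18962483 and 33083213 in MEFs. Hmgn2 had at most 10 counts in any DKO preadipocyte library and at most 3 in any DKO MEF library, against at least 744 and 1046 in WT libraries. Hmgn1 reads remained in the DKO (levels in CPM are counts scaled to a common library total). Over all days of preadipocytes they lay between 73.7 and 97.7 CPM, against 77.0 to 171 for WT libraries. The lowest and highest MEF levels were 69.7 and 114 CPM for DKO libraries, against 116 and 218 for WT libraries. Counts per gene do not tell which exons the reads came from. According to the paper, RNA from the deleted exons is absent in the DKO, and western blots detect neither HMGN protein. In 4 of the 24 MEF libraries (WT day 4 replicate 1, DKO day 4 replicate 3, WT day 8 replicate 2 and DKO day 8 replicate 3) expression was closer on average to a group of another day than to the library's own group, and the DKO against WT counts of days 4 and 8 are given with and without them. Their summed adipocyte markers differed from their groups as well. The library labelled WT day 4 replicate 1 had 1890 CPM, against 276 and 263 in the other WT libraries of day 4, and that labelled WT day 8 replicate 2 had 566, against 3870 and 3776. In DKO the values were 2873 against 1298 and 842 at day 4 and 868 against 7840 and 5664 at day 8. Whether the day labels of these libraries were exchanged was not tested. None of the 24 preadipocyte libraries was closer to another day.

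4 genes that were called lower in DKO preadipocytes at day 6 have a promoter in the RefSeq table used. Their windows from 250 bases before to 50 bases after the transcription start (GRCm38.p6, written 5′ to 3′ on the gene's strand) are shown for that reason only. Over WT differentiation Lama2 rose while Itga5 and Itgb5 fell, and shared regulation was not tested. Capitals mark GGGCGG, the GC box bound by Sp-family factors, or its reverse complement CCGCCC. The Itga5 window is chr15:103366742-103367041, minus strand, with 2 GC boxes; that of Itgb5 is chr16:33829415-33829714, plus strand, with 3; that of Itgb8 is chr12:119238227-119238526, minus strand, with 0; and that of Lama2 is chr10:27616893-27617192, minus strand, with 1.
Itga5: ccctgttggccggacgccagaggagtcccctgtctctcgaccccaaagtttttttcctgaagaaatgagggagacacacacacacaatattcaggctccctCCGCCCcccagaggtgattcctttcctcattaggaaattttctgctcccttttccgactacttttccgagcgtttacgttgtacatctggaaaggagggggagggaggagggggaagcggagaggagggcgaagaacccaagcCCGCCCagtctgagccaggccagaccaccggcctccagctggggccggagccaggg
Itgb5: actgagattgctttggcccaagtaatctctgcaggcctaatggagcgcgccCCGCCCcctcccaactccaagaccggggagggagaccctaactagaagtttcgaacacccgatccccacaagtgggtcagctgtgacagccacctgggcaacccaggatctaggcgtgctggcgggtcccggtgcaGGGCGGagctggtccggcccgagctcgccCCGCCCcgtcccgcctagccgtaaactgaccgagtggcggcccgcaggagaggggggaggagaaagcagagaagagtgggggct
Itgb8: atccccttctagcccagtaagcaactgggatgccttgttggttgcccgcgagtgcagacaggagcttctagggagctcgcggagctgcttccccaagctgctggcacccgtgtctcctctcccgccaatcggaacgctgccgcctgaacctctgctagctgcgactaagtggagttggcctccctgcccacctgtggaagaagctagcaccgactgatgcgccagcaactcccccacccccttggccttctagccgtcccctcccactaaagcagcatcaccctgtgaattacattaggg
Lama2: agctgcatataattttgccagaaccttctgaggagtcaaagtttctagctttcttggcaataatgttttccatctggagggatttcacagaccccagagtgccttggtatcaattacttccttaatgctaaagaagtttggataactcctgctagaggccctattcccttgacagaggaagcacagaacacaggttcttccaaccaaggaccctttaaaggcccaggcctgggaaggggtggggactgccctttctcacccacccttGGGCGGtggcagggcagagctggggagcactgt
At least 1 GC box was present in 13 of the 28 promoter windows of members, which belong to 12 of the 25 members with a promoter in the table. The share over all 32851 promoters was 35.7%. The AP-1 motif was searched as TGANTCA on both strands because the study examined accessibility at AP-1 sites in these cells. It was in 3 of the 28 promoter windows of members (Itga3, Itga9 and Itgax) and in 7.81% of all promoters. None of the printed windows held it.

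Per kilobase of exon, the chains of the laminin trimers alpha 4, beta 1 and gamma 1 were the most abundant of their families in both cell types. Averaged over all libraries, Lama4 stood at 46.0 CPM per kb in preadipocytes and 46.4 in MEFs, Lamb1 at 78.2 and 79.3, and Lamc1 at 92.6 and 98.9. Lama2 (5.83 and 14.2 CPM per kb) was second among the alpha chains and Lamb2 (43.9 and 47.4) among the beta chains. Lama1, Lama3, Lama5, Lamb3 and Lamc3 lay between 0.0446 and 2.54 CPM per kb in either cell type.

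During differentiation of WT preadipocytes Lama4, Lama2 and Lamc1 rose, whereas Itgb1, Itga5, Itgav, Itgb5 and Itga11 were among the integrin subunits that fell. A gene was called when its adjusted p was under 0.05 and its fold change at least 1.5. Of 35 members tested between days 9 and 0, 13 rose and 15 fell, against 26.6% of all genes called higher and 26.7% called lower. The split differed between the families: 7 of 11 laminins rose and 2 fell, whereas 6 of 24 integrins rose and 13 fell. The median log2 fold change was 0.83 over the laminins and -1.24 over the integrins.

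Lama4, the alpha chain of the laminins around adipocytes and vessels, measured 347, 331 and 308 CPM in the WT preadipocyte libraries at day 0 and 676, 654 and 722 at day 9, a log2 fold change of 1.07 (SE 0.08, adjusted p = 6.55e-06). Lamc1, the gamma chain shared by most laminins, went from 561, 540 and 487 CPM to 937, 878 and 987 (0.83, SE 0.08, adjusted p = 4.64e-05). Lama2, best known as the alpha chain of muscle and nerve basement membranes, went from 108, 96.7 and 67.7 CPM to 169, 175 and 179 (0.96, SE 0.16, adjusted p = 0.00122). None of these 3 genes had overlapping libraries between the days. Lamb1 was at 756, 1017 and 813 CPM at day 3, 858, 797 and 878 at day 6 and at 676, 598 and 750 at day 9, below the fold threshold against day 0 (0.33, SE 0.10, adjusted p = 0.0173). Lamb2 was at 263, 370 and 271 CPM at day 0, dipped to 160, 137 and 134 at day 6 and was at 358, 310 and 318 at day 9, a net log2 difference of 0.14 (SE 0.14, adjusted p = 0.392).

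**Figure D1:**
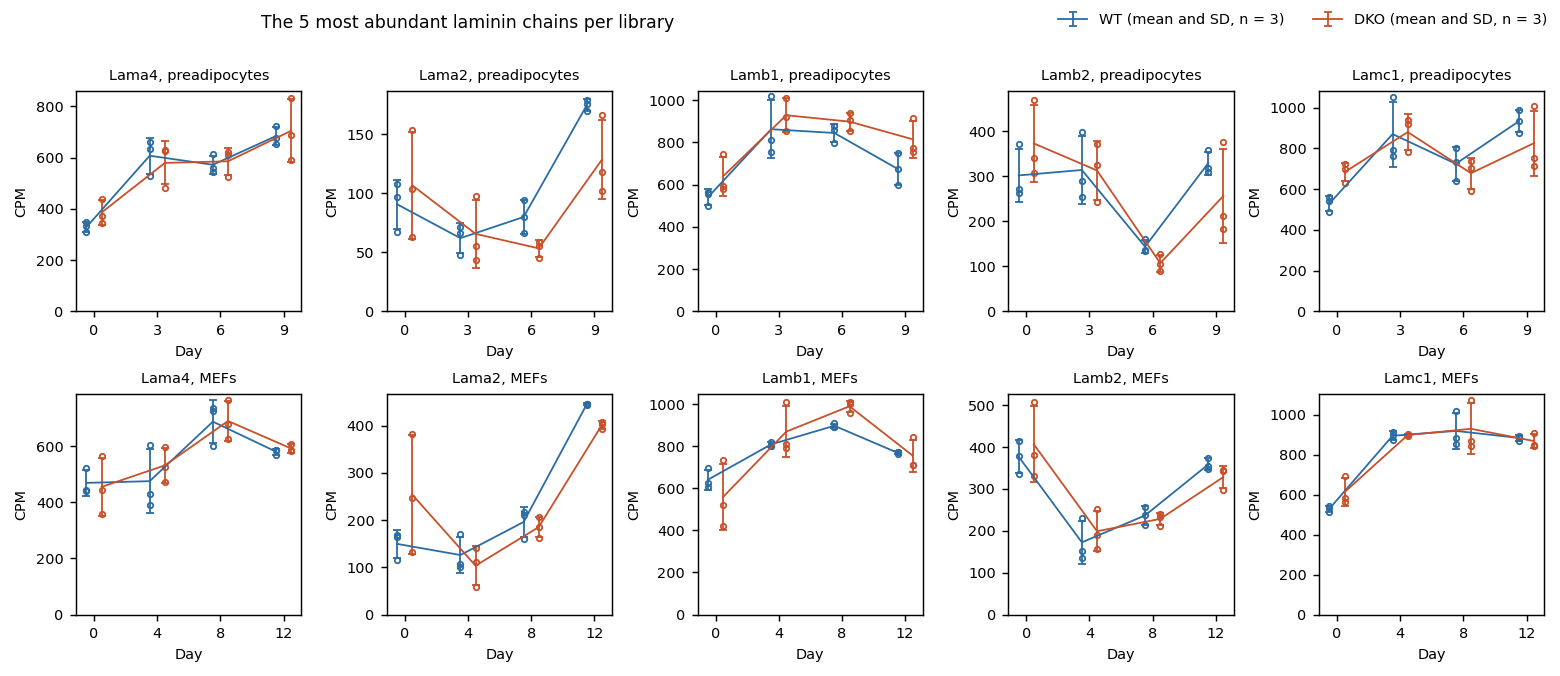
CPM of Lama4, Lama2, Lamb1, Lamb2 and Lamc1 by day in preadipocytes (top) and MEFs (bottom); circles are libraries, lines join group means, bars are the SD over 3 libraries, and axes start at 0. Lama4, Lamc1 and Lama2 end above day 0 in WT cells of both types, and the WT and DKO libraries overlap at most time points.

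The rarer laminin chains moved in both directions and by more. Lama1, the alpha chain of early embryonic basement membranes, fell from 8.59, 10.0 and 13.1 CPM to 1.41, 1.3 and 1.34 (-2.95, SE 0.21, adjusted p = 6.13e-06), and Lama5 from 51.9, 69.9 and 44.5 to 7.22, 6.91 and 8.86 (-2.84, SE 0.19, adjusted p = 9.9e-06). In both genes every day 9 library was below every day 0 library. Lama3 and Lamb3, chains best known from epithelia, rose: Lama3 from 0.331 to 8.80 mean CPM (4.71, SE 0.49, adjusted p = 8.53e-05) and Lamb3 from 0.373 to 4.29 (3.5, SE 0.38, adjusted p = 6.88e-05). Epithelial markers stayed at the floor: 7 of 7 (Cdh1, Cldn4, Epcam, Esrp1, Krt5, Krt14 and Krt15) had at most 3 counts per library in WT preadipocytes at day 9, with a summed level of 0.0479 to 0.366 CPM.

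Among receptors, Itgb1, the partner of most alpha subunits and the most abundant member at 228 CPM per kb in preadipocytes, fell from 1969, 1772 and 1860 CPM at day 0 to 641, 595 and 591 at day 9 (-1.60, SE 0.08, adjusted p = 9.21e-07). Itga5, the fibronectin receptor alpha subunit, was the most abundant alpha subunit (59.7 CPM per kb). It remained at 622, 773 and 315 CPM at day 3, dropped to 80.8, 89.1 and 90.9 at day 6 and was at 139, 127 and 133 at day 9, against 509, 552 and 378 at day 0 (-1.84, SE 0.14, adjusted p = 1.11e-05). Itga11, a collagen receptor subunit of fibroblasts, fell earlier: from 218, 195 and 203 CPM at day 0 to 19.2, 25.8 and 9.61 at day 3, with a return to 79.5, 79.1 and 76.3 at day 9 (-1.38, SE 0.07, adjusted p = 7.29e-07). The fall of Itga5 thus came between days 3 and 6 and that of Itga11 between days 0 and 3. Itgav (-1.67, SE 0.08) and Itgb5 (-1.36, SE 0.07), which pair as a vitronectin receptor, also fell. The steepest integrin falls were those of Itga8 (114.7 to 10.6 mean CPM, -3.44, SE 0.40, adjusted p = 0.000351) and Itga2 (8.29 to 0.804 mean CPM, -3.35, SE 0.29, adjusted p = 2.01e-05). At day 9, WT replicate 1 had 16.1 CPM of Itga8, against 6.35 and 9.39 in the other libraries.

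Itga6 and Itga7, alpha subunits of laminin receptors, moved the other way. Itga6 was at 17.5, 15.4 and 10.3 CPM at day 0, at 81.6, 82.7 and 94.6 at day 6 and at 83.7, 92.5 and 106 at day 9 (2.71, SE 0.20, adjusted p = 2.4e-05), and Itga7 rose by 0.65 (SE 0.11, adjusted p = 0.00115) from 43.4 to 67.5 mean CPM. Itga6 was singled out after its values were seen. Its usual partner in hemidesmosomes, Itgb4, fell from 7.73, 7.58 and 4.51 CPM to 1.62, 1.17 and 2.16 (-1.99, SE 0.30). Itga3, the remaining alpha subunit of the laminin receptors, fell by 1.61 on the log2 scale (SE 0.23, adjusted p = 0.000328). The laminin-binding alpha subunits therefore did not change as 1 block.

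DKO preadipocytes changed much as WT did between days 0 and 9: 10 of 35 members rose and 15 fell, against 27% and 28.6% of all genes. All 10 that rose in DKO were among the 13 of WT, and 14 of the 15 that fell were called in both genotypes. The day 0 libraries of a genotype enter only that genotype's comparison. Lama2 (0.26, SE 0.34, adjusted p = 0.516) and Lamc1 (0.27, SE 0.15, adjusted p = 0.153) rose in WT and were not called in DKO. A call in only 1 genotype does not show that the genotypes differed. The interaction of genotype and day tests this. Between days 9 and 0 it called 0 of 36 members with edgeR, against 0.0555% of all genes, and 0 by DESeq2 or limma. An unadjusted p under 0.05 was found for 4 members and for 2556 of 16216 genes. Lamc1 had the smallest p-value of these 4 members (-0.58, SE 0.17, adjusted p = 0.17). Without DKO day 9 replicate 2, 2 members were called in this interaction.

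**Figure D2:**
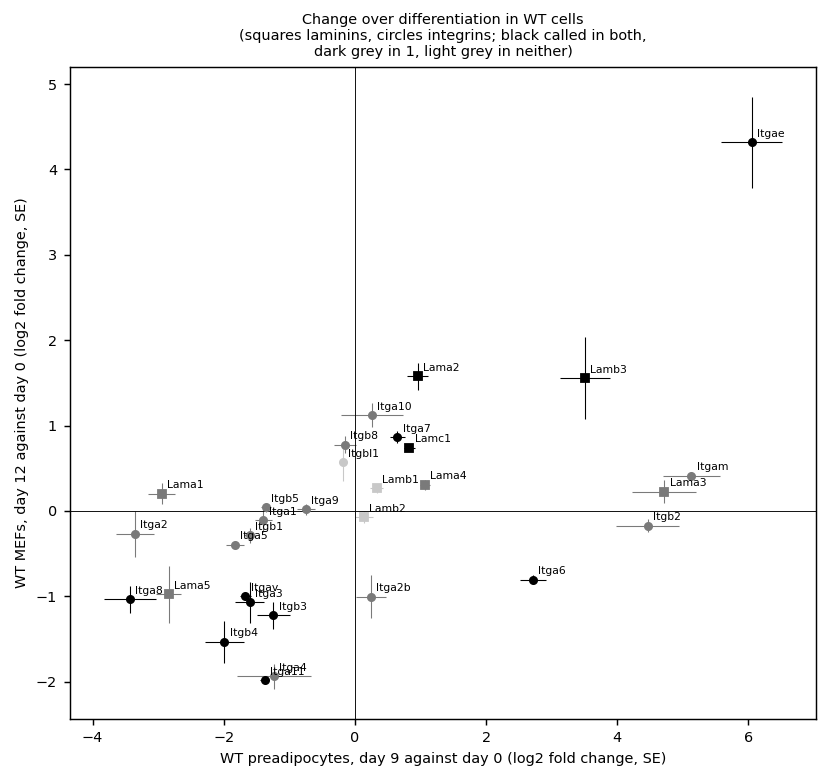
Log2 fold change from day 0 to the last day in WT preadipocytes (horizontal axis, day 9) and WT MEFs (vertical axis, day 12), with standard errors; squares are laminins, circles integrins, and the shade gives the number of cell types in which a gene was called. Lama2 and Lamc1 lie at the upper right and Itga11 and Itgav at the lower left, while Itga6 lies at the lower right.

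In WT MEFs, 8 of 33 members tested rose from day 0 to day 12 and 10 fell, against 15.8% and 14.3% of all genes. The laminins again leaned upwards (4 of 10 rose and none fell) and the integrins downwards (4 of 23 rose and 10 fell). Lama2 rose from 165, 116 and 168 CPM to 443, 446 and 447 (1.57, SE 0.16, adjusted p = 0.000838) and Lamc1 from 515, 533 and 543 to 871, 887 and 896 (0.74, SE 0.04, adjusted p = 3.04e-09). Neither gene had overlapping libraries between the days. Lamb3 rose from 7.42, 1.92 and 6.63 to 16.1, 14.2 and 16.9 CPM (1.56, SE 0.48, adjusted p = 0.0467), a call made in 4 of 12 alternative fits.

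Itga11 had the largest fall in WT MEFs, from 295, 324 and 313 CPM to 80.5, 77.2 and 77.6 (-1.99, SE 0.05, adjusted p = 1.56e-13). As in preadipocytes it was lowest at the first time point after induction, with 27.3, 20.05 and 20.3 CPM at day 4. Itga4, a fibronectin and VCAM1 receptor subunit, fell from 50.7, 61.4 and 46.2 CPM to 11.5, 15.8 and 13.7 (-1.94, SE 0.15, adjusted p = 2.81e-05). Itgal (4.17 to 1.31 mean CPM, -1.67, SE 0.29, adjusted p = 0.000403) and Itgb4 (2.40 to 0.828 mean CPM, -1.53, SE 0.25, adjusted p = 0.000101) fell from low levels. Itgb1 (-0.29, SE 0.09, adjusted p = 0.0286) and Itga5 (-0.40, SE 0.05, adjusted p = 7.95e-06) changed by less than the fold threshold in WT MEFs. Itgbl1, which was second per kilobase among the beta genes of MEFs (82.8 CPM per kb, against 7.39 in preadipocytes), ranged from 25.8 CPM at day 4 to 677 at day 12 in WT, and its day 12 libraries (662, 656 and 677) did not pass the test against day 0 (518, 316 and 508; 0.57, SE 0.22, adjusted p = 0.0883).

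Of the 32 members tested in both WT series, 12 were called in the same direction in each: among them Itga7, Itgae, Lama2, Lamb3 and Lamc1 rose, and Itga3, Itga8, Itga11, Itgav, Itgb3 and Itgb4 fell. The cell types were normalized separately and were not tested against each other. Itga6 alone was called in opposite directions: in MEFs it fell from 107, 123 and 109 CPM to 65.2, 64.8 and 63.5 (-0.81, SE 0.05, adjusted p = 1.34e-08), where in preadipocytes it had risen.

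In DKO MEFs 2 of 35 members rose and 7 fell from day 0 to day 12, against 15.4% and 9.41% of all genes. The number called went from 9 to 14 without DKO day 0 replicate 1 and to 15 without DKO day 0 replicate 3. Only Itgad and Itgae, both close to 0 at day 0, were called higher, and 6 of the 7 that fell also fell in WT. Itga5 was the exception, at -0.79 (SE 0.08, adjusted p = 0.000637). Itgad had 0 counts in every day 0 MEF library; at day 12 its level was at least 9.07-fold higher than the level of 3 counts per library in DKO and at least 4.50-fold higher in WT.

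The comparison of DKO with WT at each day asks which members depend on the HMGN proteins. In preadipocytes at day 0, 0 of 30 members were called by edgeR, DESeq2 or limma, against 0.218% of all genes. An unadjusted p under 0.05 was found for 4 members and for 1188 of 15123 genes. Lamc1 was among these 4 members, with 722, 697 and 633 CPM in DKO and 561, 540 and 487 in WT (0.37, SE 0.09, adjusted p = 0.367). The DKO libraries of day 0 spread widely for Lama5 (205, 49.3 and 97.3 CPM) and Itga5 (731, 348 and 361 CPM).

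At day 3, 1 of 31 members was called, against 0.337% of all genes. Lama1 measured 2.67, 2.53 and 2.31 CPM in DKO and 7.71, 6.97 and 7.84 in WT, with no overlap (-1.57, SE 0.14, adjusted p = 0.0131, 0.336-fold). WT libraries had been at 8.59, 10.0 and 13.1 CPM at day 0, and by day 6 both genotypes were low (1.19, 1.26 and 1.59 CPM in DKO, 2.07, 1.58 and 2.22 in WT). The call did not hold without any 1 of WT replicate 1, WT replicate 2, WT replicate 3, DKO replicate 2 or DKO replicate 3, where the adjusted p was 0.0552 to 0.112 and the log2 fold change -1.62 to -1.52. Itga6 was higher in DKO at day 3 (31.1, 30.5 and 29.3 CPM) than in WT (12.3, 24.1 and 14.1) without overlap but was not called (0.86, SE 0.25, adjusted p = 0.239).

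Day 6 was the time point with the most called members. Of 35 tested, 6 were lower in DKO and 1 was higher, together 7, where 6.53% of all genes were called lower, 5.03% higher and 11.6% in either direction. The median log2 fold change over the members was -0.46, and 26 of 35 members were lower in DKO. In 11 of 35 members every DKO library lay below every WT library and in 4 above, against 18.3% and 24.7% of all genes. The called members were 2 laminin alpha chains and 5 integrin subunits, and no beta or gamma laminin chain was among them.

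Itga5 was at 54.4, 63.3 and 51.4 CPM in the DKO libraries of day 6 and at 80.8, 89.1 and 90.9 in WT (-0.66, SE 0.09, adjusted p = 0.00442). Itgb5, a vitronectin receptor subunit, was at 94.4, 70.7 and 70.0 CPM in DKO and 123, 127 and 136 in WT (-0.75, SE 0.13, adjusted p = 0.00777) and was called in all 12 alternative fits. Itgb3, which forms another vitronectin receptor with Itgav, was at 1.46, 0.989 and 1.54 CPM against 2.63, 3.04 and 2.54 (-1.06, SE 0.23, adjusted p = 0.0162). In all 3 genes the lowest WT library was above the highest DKO library. The calls of Itga5 and Itgb3 were lost in 1 fit over all days (adjusted p = 0.197 and 0.248), and that of Itgb3 also without WT replicate 3 (adjusted p = 0.057). The promoters of Itga5 and Itgb5 are among those printed above.

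Itgb8, the Itgav partner that binds latent TGF-beta, was at 3.97, 1.54 and 1.72 CPM in DKO and 7.10, 4.93 and 5.97 in WT (-1.34, SE 0.36, adjusted p = 0.0376). Lama2 was at 45.5, 55.8 and 59.0 CPM against 94.1, 66.1 and 79.9 (-0.62, SE 0.15, adjusted p = 0.025), and Lama3 at 1.78, 0.550 and 1.76 against 3.98, 5.2 and 3.55 (-1.64, SE 0.38, adjusted p = 0.0204). None of the 3 overlapped between genotypes, but their calls rested on few libraries: Itgb8 was called in 6, Lama2 in 5 and Lama3 in 7 of 12 alternative fits. Itgae, the alpha subunit of the E-cadherin receptor of mucosal T cells, was the member that was higher in DKO: 4.43, 4.45 and 3.35 CPM against 1.65, 2.54 and 1.90 (0.97, SE 0.22, adjusted p = 0.0192). Its 6 day 6 libraries held 44 to 97 counts. The call of Itgae was lost in 1 fit over all days, without WT replicate 1 and without WT replicate 3. The T cell marker Cd3e had at most 3 counts in each WT library at day 6 and more in at least 1 DKO library, and at day 9 the reverse held. All 8 leukocyte markers tested at day 6 were lower in DKO (median log2 fold change -1.02), and none was called. The total of 7 called members at day 6 fell to 3 when WT replicate 1 was left out, to 2 when WT replicate 3 was and to 4 when DKO replicate 3 was.

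**Figure D3:**
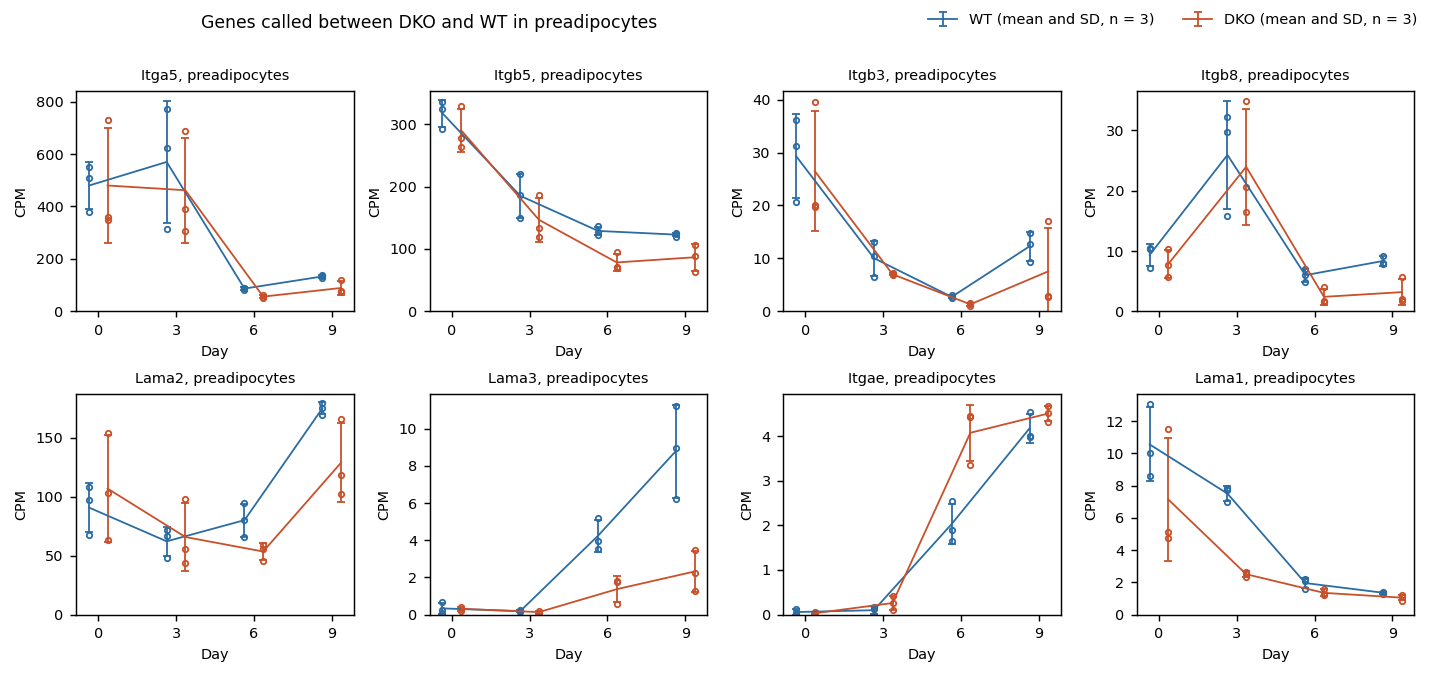
CPM by day of the 8 members called between DKO and WT preadipocytes, 7 at day 6 and Lama1 at day 3; circles are libraries, lines join means, bars are the SD over 3 libraries, and axes start at 0. Itga5, Itgb5 and Itgb3 are far lower at day 6 than at day 0 in both genotypes, Itgb8 peaks at day 3, all 4 are lower in DKO at day 6, and 1 DKO library of day 9 stands high for Itgb3.

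The abundant laminin chains differed little between genotypes at day 6. Lama4 was at 526, 608 and 622 CPM in DKO and 558, 545 and 612 in WT (-0.00, SE 0.10, adjusted p = 0.992), Lamb1 at 853, 903 and 938 against 858, 797 and 878 (0.05, SE 0.10, adjusted p = 0.723), and Lamc1 at 593, 702 and 740 against 732, 638 and 803 (-0.13, SE 0.13, adjusted p = 0.483). Their libraries overlapped. Itgb1 passed the adjusted p but not the fold threshold, with 410, 418 and 386 CPM in DKO and 630, 468 and 543 in WT (-0.47, SE 0.12, adjusted p = 0.0304), as did Lamb2 (-0.46, SE 0.13, adjusted p = 0.0386) and Itga7 (0.36, SE 0.10, adjusted p = 0.0378). Itga11 and Itga6 were not called.

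At day 9, 0 of 34 members were called by edgeR or limma, against 1.24% of all genes, and DESeq2 called 7. An unadjusted p under 0.05 was found for 11 members and for 3984 of 14700 genes. In 13 members the highest DKO library was under the lowest WT library, and in 3 the reverse held, against 12.4% and 22.2% of all genes. The members lower at day 6 kept the sign of their difference: Itga5 was at 75.9, 119 and 73.2 CPM in DKO and 139, 127 and 133 in WT (-0.61, SE 0.19, adjusted p = 0.102), Itgb5 at 89.2, 107 and 63.9 against 124, 125 and 120 (-0.54, SE 0.17, adjusted p = 0.114), and Itgb8 at 5.72, 2.13 and 1.73 against 9.26, 7.96 and 7.86 (-1.43, SE 0.44, adjusted p = 0.103). DKO replicate 2 stood apart for Itgb3, with 17.1 CPM against 2.83 and 2.72 in the other DKO libraries and 12.8, 14.8 and 9.29 in WT. Without that library 10 members were called, and without DKO replicate 1, 1 was. The shares of all genes called in these fits and by DESeq2 are not given here. Itgb4 (-1.58, SE 0.32) and Lama3 (-1.96, SE 0.39) both had an adjusted p of 0.0519.

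**Figure D4:**
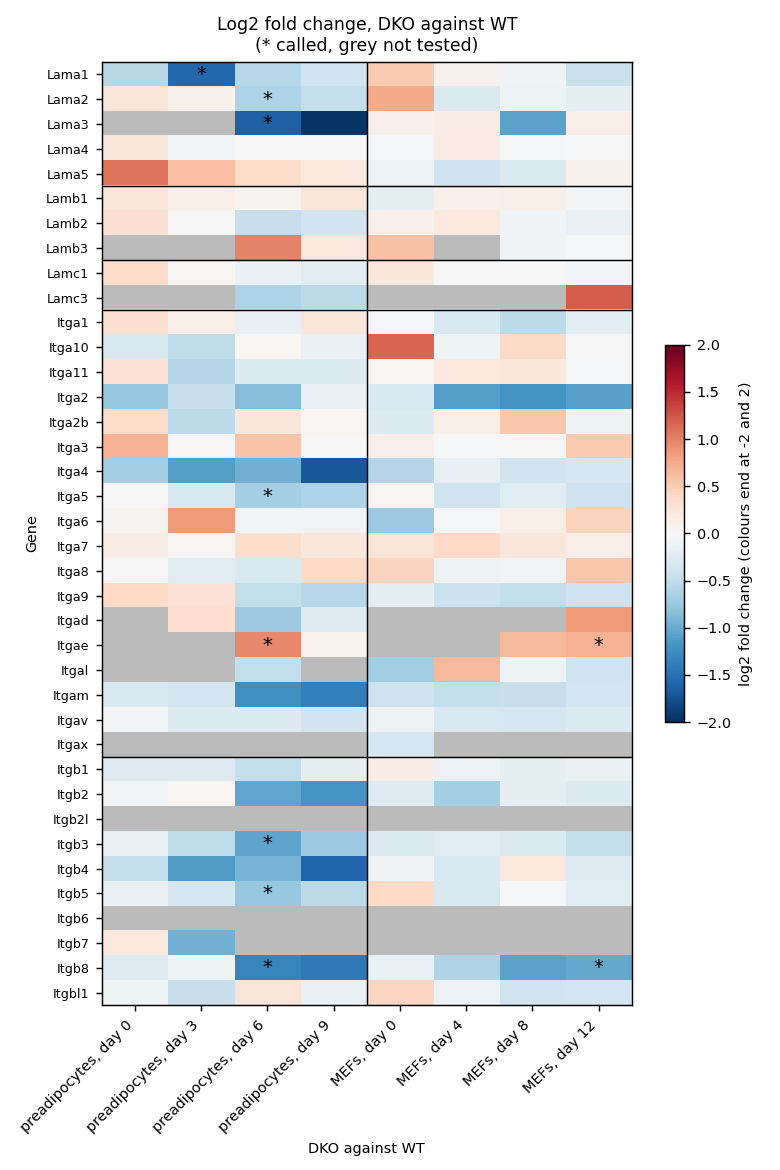
Log2 fold change of DKO against WT for the members (rows, by family) in the 8 comparisons (columns); red is higher and blue lower in DKO, colours end at -2 and 2, stars mark called members and grey cells were not tested. Blue prevails among the integrins in preadipocytes at days 6 and 9, and the stars stand at preadipocyte days 3 and 6 and MEF day 12.

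The interaction of genotype and day between days 6 and 0 called 0 of 36 members by edgeR, against 3.49% of all genes, 1 by DESeq2 (Itgb5) and 0 by limma. An unadjusted p under 0.05 was found for 5 members and for 3582 of 16236 genes. Itgb5 had the smallest adjusted p of the members (-0.59, SE 0.18, adjusted p = 0.0788). Without DKO day 6 replicate 1, 2 members were called.

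The leukocyte integrin subunits Itgam and Itgb2 rose in the preadipocyte cultures between days 3 and 6. Itgam, the alpha subunit of the macrophage receptor CR3, was at 8.71, 4.88 and 3.30 CPM in WT at day 0 and 0.573, 7.05 and 1.42 at day 3, then at 135, 174 and 196 at day 6 and 127, 254 and 212 at day 9 (5.13 between days 9 and 0, SE 0.44, adjusted p = 8.56e-05). Its partner Itgb2 followed, from 4.86 mean CPM at day 0 to 108.1 at day 9 (4.47, SE 0.48, adjusted p = 0.000252). Itgad, also an Itgb2 partner, rose later, from 1.35, 4.93 and 3.03 CPM at day 6 to 44.7, 60.7 and 60.8 at day 9 (8.28 against day 0, SE 0.42, adjusted p = 5.41e-06). Itgae was at most 0.123 CPM at day 0 and at 3.97, 4.00 and 4.55 at day 9 (6.05, SE 0.47, adjusted p = 1.04e-05). Itgad and Itgae were close to 0 at day 0 and passed the count filter through their day 9 libraries. The size of their fold changes and their p-values therefore rest on very few day 0 counts. The partner of Itgae, Itgb7, was called lower between days 9 and 0 in both genotypes.

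Leukocyte markers rose at the same step. The summed level of the 10 markers (among them Ptprc, Cd68, Adgre1, Csf1r, Cd14, C1qa and C1qb) was 39.4 to 104.6 CPM in WT at day 0, 20.8 to 60.0 at day 3, 1669 to 3160 at day 6 and 1265 to 2094 at day 9, and 8 of the 8 tested were called higher at day 9. In DKO the sum was 630.2 to 1775 CPM at day 6 and 517.5 to 1191 at day 9, where all 8 were lower than in WT and none was called. Itgam and Itgb2 had lower means in DKO, as the markers did, and were not called by edgeR: at day 6 Itgam was at 99.9, 41.0 and 78.8 CPM in DKO (-1.23, SE 0.35, adjusted p = 0.0564), and at day 9 at 116, 56.1 and 60.2 (-1.39, SE 0.36, adjusted p = 0.0781). Other fits did call them: at day 6 limma called both and DESeq2 called Itgam, as did edgeR without DKO replicate 1 or 2, and at day 9 DESeq2 called both.

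Divided by the leukocyte sum of the same library, Itgam was at 63.5 ± 6.6 CPM per 1000 CPM of markers in DKO and 69.7 ± 13.2 in WT at day 6, and at 95.8 ± 13.4 and 113 ± 11.4 at day 9 (SD, n = 3). Itgb2 was at 34.2 ± 2.7 and 32.5 ± 1.3 at day 6 and at 61.2 ± 3.4 and 62.4 ± 3.2 at day 9. These ranges overlapped between genotypes. Itgad did not scale with the markers: DKO replicate 2 of day 9 had the lowest marker sum of its day (517.5 CPM) and the highest Itgad (76.0 CPM, or 147 per 1000, against 26.9 to 47.3 in the other 5 libraries of that day). Lama3, called lower in DKO at day 6, was at 1.00, 0.872 and 1.55 CPM per 1000 CPM of markers in DKO and 2.39, 1.65 and 1.33 in WT at day 6, where the genotypes overlapped. At day 9 it was at 2.90, 2.40 and 3.05 in DKO and 4.92, 5.36 and 4.99 in WT, without overlap. The part of other cell types in these levels was not tested.

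**Figure D5:**
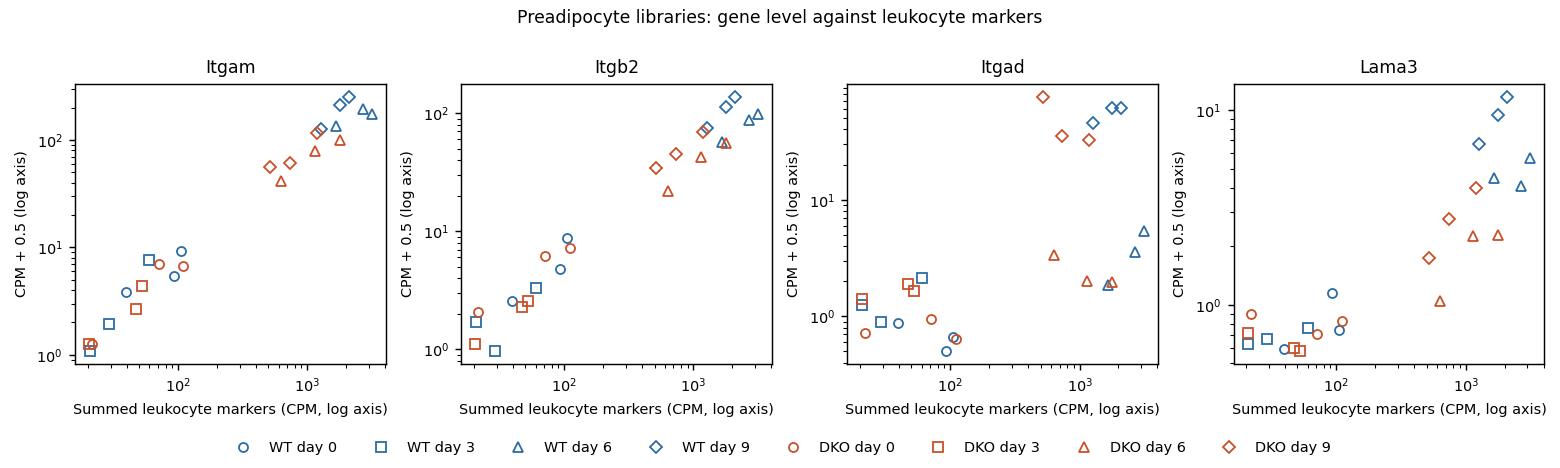
Level of Itgam, Itgb2, Itgad and Lama3 (CPM + 0.5, log axis) against the summed CPM of 10 leukocyte markers (log axis) in the 24 preadipocyte libraries; shapes are days and colours genotypes. Itgam and Itgb2 rise along with the marker sum, whereas Itgad is high at day 9 alone and highest in a DKO library with a low marker sum.

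Other markers also moved with genotype at day 6, beside the members called there. The 6 adipocyte markers summed to 19680 to 24573 CPM in the DKO libraries, against 13321 to 16967 in WT, and 1 of 6 was called higher. All 5 brown-like markers (Ucp1, Cidea, Elovl3, Ppargc1a and Cox7a1) were called higher, with sums of 634.0 to 804.2 against 208.0 to 315.8 CPM. The 10 preadipocyte and fibroblast markers summed to 1497 to 2193 CPM in the DKO libraries, against 3140 to 3647 in WT, with 3 of the 9 tested called lower. The 4 Schwann cell markers summed to 2.97 to 12.01 CPM in the DKO libraries, against 15.8 to 18.4 in WT, with 2 called lower. The 7 mural cell markers summed to 66.6 to 78.1 CPM in the DKO libraries, against 37.5 to 43.6 in WT, with 2 of the 6 tested called higher, Myh11 (1.25, SE 0.15) and Cspg4 (1.46, SE 0.26). Endothelial markers summed to 5.72 to 8.27 CPM in DKO, against 5.13 to 10.9, and none of the 4 tested was called by edgeR. Their part in the differences was not tested.

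In MEFs, 0 members were called by edgeR, DESeq2 or limma at day 0 (of 33), day 4 (of 31) or day 8 (of 33), against 0.102%, 0.0905% and 0.0595% of all genes. An unadjusted p under 0.05 was found for 4, 6 and 6 members and for 1454 of 15671, 915 of 15475 and 1295 of 15117 genes. Without DKO replicate 1, 2 members were called at day 0. Without WT replicate 1 and DKO replicate 3, 1.12% of all genes were called at day 4 and 2 members with them: Itga7 higher (0.79, SE 0.10, adjusted p = 0.0174) and Itgb2 lower (-0.78, SE 0.10, adjusted p = 0.0189). Without WT replicate 2 and DKO replicate 3, 4% of all genes were called at day 8 and again 2 members, both lower: Itgb8 (-1.38, SE 0.17, adjusted p = 0.00387) and Itga1 (-0.61, SE 0.09, adjusted p = 0.0053). These 2 fits were chosen after the data were seen and left 2 libraries per group. With all libraries, Itgb8 at day 8 was at 6.96, 5.02 and 5.40 CPM in DKO and 16.3, 5.25 and 14.3 in WT, where 5.25 belongs to the library labelled replicate 2.

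At day 12, 2 of 35 members were called, 1 lower and 1 higher, against 4.05%, 3.92% and, in either direction, 7.98% of all genes. Itgb8 was at 9.38, 10.9 and 9.94 CPM in DKO and 20.002, 20.7 and 19.7 in WT (-1.03, SE 0.09, adjusted p = 3.5e-07). It had risen from day 0 in WT (0.78, SE 0.10, adjusted p = 1.03e-05) and stood at -0.07 (SE 0.44, adjusted p = 0.913) between these days in DKO. The interaction of genotype and day did not call Itgb8 with all libraries, so a difference between these changes was not shown. Itgb8 was called in it when DKO day 0 replicate 2 was left out. Itgae was at 2.49, 3.6 and 3.10 CPM in DKO and 2.27, 2.07 and 1.23 in WT (0.69, SE 0.25, adjusted p = 0.0458), a call made in 4 of 12 alternative fits. Itgb8 and Itgae were thus called in the same directions in preadipocytes at day 6 and in MEFs at day 12, from separate sets of libraries. The day 6 calls of both genes and the day 12 call of Itgae were each lost in several alternative fits. Leaving out WT replicate 2, its replicate 3 or the DKO replicate 3 gave a count of 1, and leaving out DKO replicate 1 or 2 gave 4.

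Differences below the fold threshold were common at day 12, when replicates were tight: 17 members passed the adjusted p when no fold was required, the 2 called members included. The share of all genes that passed in this way is not given here, so this count does not set the members apart. Small differences were also common outside the members: an unadjusted p under 0.05 was found for 21 of 35 members and for 6480 of 15319 genes. In 14 members the highest DKO library was under the lowest WT library, and in 4 the reverse held, against 20.5% and 26.5% of all genes. Itga5 was at 84.3, 83.2 and 82.7 CPM against 111, 107 and 109 (-0.41, SE 0.04, adjusted p = 1.76e-06), Itgav at 138, 131 and 138 against 164, 163 and 164 (-0.29, SE 0.04, adjusted p = 3.66e-05), and Itgam at 184, 179 and 185 against 236, 231 and 234 (-0.38, SE 0.04, adjusted p = 1.76e-06). Above WT were Itga8 (66.6, 53.3 and 66.3 CPM against 43.6, 39.8 and 41.4; 0.56, SE 0.08, adjusted p = 0.000141), Itga3 (0.52, SE 0.15, adjusted p = 0.0271) and Itga6 (0.45, SE 0.09, adjusted p = 0.00481). Lama4, Lamb1 and Lamc1 differed by 0.00, -0.05 and -0.05. Leukocyte markers were high in MEFs of all days and summed to 1321 to 1506 CPM in the DKO libraries, against 1791 to 1872 in WT at day 12, and Itgam per 1000 CPM of them was 127 ± 7.5 and 128 ± 2.3 (SD, n = 3). Other markers moved with genotype at this day too. The adipocyte markers summed to 16107 to 17213 CPM in the DKO libraries, against 10094 to 10430 in WT (5 of 6 called higher), and the brown-like markers to 347.1 to 357.1, against 151.0 to 159.5 (4 of 5 called higher). Schwann cell markers summed to 37.3 to 54.6 CPM, against 81.1 to 86.7 (3 of 3 tested called lower), and mural cell markers to 85.1 to 119.8, against 138.2 to 140.7 (3 of 7 called lower and 1 higher). Endothelial markers summed to 10.97 to 14.3 CPM, against 16.9 to 20.4 (2 of 6 called lower). Their part in the differences of Itgb8 and Itgae was not tested.

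The interaction of genotype and day in MEFs called 0 of 35 members by edgeR, against 1.42% of all genes, 2 by DESeq2 (Itga6 and Lama1) and 0 by limma. An unadjusted p under 0.05 was found for 5 members and for 2542 of 16352 genes. Without DKO day 0 replicate 1, 6 members were called, and without DKO day 0 replicate 2, 2 were. Itga6 was lower in DKO at day 0 (98.1, 33.9 and 73.9 CPM against 107, 123 and 109) and higher at day 12 (80.2, 104 and 83.9 against 65.2, 64.8 and 63.5), with an interaction of 1.20 (SE 0.40, adjusted p = 0.174). Lama1 went the opposite way, higher in DKO at day 0 (6.87, 12.2 and 8.08 against 6.69, 5.85 and 6.30 CPM) and lower at day 12 (5.96, 4.89 and 5.33 against 7.64, 7.48 and 6.56), with an interaction of -0.94 (SE 0.28, adjusted p = 0.119).

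Genes that bind or transmit integrin signals were counted from lists fixed by function. Of 17 integrin ligands other than laminins, 15 were tested at day 6 in preadipocytes, and 5 were lower and 1 higher in DKO, against 6.53% and 5.03% of all genes, with a median log2 fold change of -0.74. Postn (periostin) was at 653 mean CPM in DKO and 1750 in WT (-1.46, SE 0.20, adjusted p = 0.00454) and Fbn1 (fibrillin) at 492 and 902 (-0.91, SE 0.16), while Npnt (nephronectin, the ligand of Itga8) was at 6.49 and 3.47 (0.86, SE 0.17). Between days 9 and 0 of WT, 12 of 15 ligands fell, against 26.7% of all genes, among them Tnc (tenascin C) from 4738 to 168 mean CPM, and Vtn (vitronectin) rose from 0.334 to 5.50.

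Of 20 basement membrane partners of laminin, 17 were tested at day 6, and 5 were lower and 1 higher in DKO (median -0.60), against 6.53% and 5.03% of all genes. Nid2, which links laminin to collagen IV, was at 110 and 257 mean CPM in DKO and WT (-1.27, SE 0.13, adjusted p = 0.0022), Col18a1 at 81.1 and 165 (-1.06, SE 0.12), and Smoc1 at 120 and 75.2 (0.63, SE 0.15). Smoc1 was also higher in DKO at day 3 and, in MEFs, at day 12 (0.59, SE 0.05). In WT preadipocytes 2 of 19 partners rose and 9 fell between days 0 and 9, against 26.6% and 26.7% of all genes.

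Of 12 laminin receptors outside the integrin family, 2 were lower at day 6 (Sdc3 and Sdc1, both syndecans) and 1 higher (Dmd, dystrophin, 23.0 against 11.1 mean CPM, 1.03, SE 0.26), against 6.53% and 5.03% of all genes. Of 28 integrin adaptors, 24 were tested and 3 were lower in DKO at day 6, against 6.53% of all genes, among them Pxn (paxillin, -0.66, SE 0.14) and Src (-0.59, SE 0.12). In WT, 15 of 26 adaptors fell between days 0 and 9, against 26.7% of all genes, such as Actn1 (alpha-actinin, -3.13, SE 0.16) and Flna (filamin A, -2.53, SE 0.12), and 3 rose, among them Fermt3 (kindlin-3 of blood cells, 4.67, SE 0.33). In MEFs at day 12, 2 of 16 ligands tested, Postn (-0.59, SE 0.04) and Icam1 (-0.67, SE 0.06), were lower in DKO than in WT, against 4.05% of all genes.

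A few members were at or near the floor. Itgb2l had at most 2 counts in any of the 48 libraries, Itgb6 at most 6, and Itgax at most 18 in preadipocytes, so differences in them could not be measured reliably. Itgb7 had at most 8 counts in any MEF library.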

How the data were processed

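RNA was sequenced as 50 bp paired reads. The labels give polyA RNA, whereas the methods of the study name a total RNA kit. The authors aligned the reads to mm10 and deposited RSEM expected counts per gene, 1 table per cell type (the submitters' processing notes list cutadapt 1.18, STAR 2.7.0f and RSEM 1.3.0). All columns matched a library (0 were unmapped). Expected counts were rounded and tested with edgeR 4.0.16 (filterByExpr, TMM normalization, robust quasi-likelihood test, Benjamini-Hochberg adjustment over all genes tested, R 4.3.3), with 3 libraries per group and each comparison fitted on its own groups. A call needed a 1.5-fold difference or more together with an adjusted p below 0.05. Levels are CPM scaled by TMM over the libraries of a cell type, and levels per kilobase use the merged exon length. The cell types were not tested against each other. DESeq2 1.42.0, limma 3.58.1 (voom), other normalizations and filters, 1 fit over all days, a replicate block and the omission of each library were alternatives, and the omission of MEF libraries nearer to another day was added after the data were seen. The procedure was tested on simulated data. Values were given for members called between genotypes, the 2 most abundant per family and the 4 largest WT rises and falls per cell type; for pathway lists, the 2 called genes with the smallest p in each direction. Other named members were chosen after their values were seen. The members and lists were chosen with earlier results of these data known. Results for 1 member and 1 leukocyte marker are not reported here by name.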

Additional observations from a re-analysis of the deposited data

Results flagged for a closer look

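A difference in the effect of genotype between days was found for Itga5 in MEFs: the interaction of genotype and day between days 12 and 0 was -0.41 (SE 0.09, edgeR adjusted p = 0.049), which passed the adjusted p and not the fold threshold. The effect of genotype on Itga1, a collagen receptor subunit, pointed in opposite directions in the 2 cell types. All DKO libraries lay above all WT libraries in preadipocytes at day 9 (0.24) and below them in MEFs at day 12 (-0.23), and the difference between the cell types was not tested. Dixon's test for an outlying library was not applied to groups of 3.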

How the results depend on the processing

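With DESeq2 the number of members called between DKO and WT was 2 at day 3 and 7 at day 9 in preadipocytes and 1 at day 12 in MEFs, it was 14 over time in DKO MEFs, and it was 1 and 2 for the interactions at preadipocyte day 6 and in MEFs. Scaling by library size alone gave 2 at preadipocyte day 9, 1 at MEF day 12 and 14 over time in DKO MEFs. Without a filter on low counts there were 2 at preadipocyte day 9 and 4 at MEF day 12. One fit over all days gave 3 at preadipocyte day 6, 2 at day 9, 1 at MEF day 0 and 0 at MEF day 12. Without the fold threshold there were 17 at MEF day 12 and 1 for the MEF interaction. Without the MEF libraries nearer to another day there were 2 at day 4 and 2 at day 8, an alternative chosen after seeing the data. Leaving out 1 library at a time gave 0 to 1 at preadipocyte day 3, 2 to 8 at day 6, 0 to 10 at day 9, 0 to 2 at MEF day 0, 1 to 4 at MEF day 12, 7 to 15 over time in DKO MEFs, and 0 to 2, 0 to 2 and 0 to 6 for the interactions at preadipocyte days 6 and 9 and in MEFs. The cause of these changes was not tested. Among the alternative values of the members called between genotypes and of the largest WT changes over time, 433 kept their direction and side of the threshold, 46 lost the call and 13 gained it, and none changed sign while called. In no comparison tested here did all 3 same-numbered pairs deviate together (a correlation over 0.1 in each): correlations of WT and DKO deviations within a day ran from -0.687 to 0.602. DKO preadipocytes of days 0 and 3, which were not compared, did so (0.562, 0.407 and 0.501). With the replicate block, 5 members were called at preadipocyte day 6, where the adjusted p became 0.075 for Lama2 and 0.0672 for Lama3, and every count stayed within 1.5 times its value. The 3 libraries per group limit the precision, and low genes such as Itgae rest on few counts.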
